A study of Mus musculus with 18 samples.

Results

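The nuclear-encoded subunits of the mitochondrial respiratory chain and ATP synthase were followed through differentiation and Setd2 depletion in C2C12 cells. Members were the protein-coding genes whose symbol begins with Nduf followed by a, b, c, s or v (assembly factors of the Ndufaf type left out), Sdha to Sdhd, and symbols beginning Uqcr, Cox4 to Cox8 or Atp5. The rule found 86 of the 47311 genes in the tables, of which 21702 are protein-coding. They divide into 38 genes of complex I, 4 of complex II, 8 of complex III, 18 of complex IV and 18 of complex V.

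C2C12 is a muscle cell line from mouse whose dividing myoblasts fuse into myotubes on differentiation, and Setd2 encodes a histone methyltransferase. RNA with polyA tails was sequenced from myotubes given Setd2 siRNA 1, Setd2 siRNA 2 or a control siRNA, and from myoblasts given the same agents. Each of the 6 groups had 3 libraries labelled as biological replicates, 18 in all, and the cells of all groups, controls included, had been stretched before their RNA was taken. The labels do not say that replicates were separate cultures, so p-values measure the spread between these libraries. All groups are 1 cell line with transient depletion.

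Complex I (NADH dehydrogenase), complex III (the cytochrome bc1 complex) and complex IV (cytochrome c oxidase) pass electrons to oxygen and pump protons across the inner mitochondrial membrane. Complex II (succinate dehydrogenase) feeds in electrons from the citrate cycle without pumping, and complex V (ATP synthase) uses the proton gradient to make ATP. Heart and skeletal muscle use their own isoforms of some complex IV subunits, in place of or beside the ubiquitous ones.

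The libraries held 43.54 to 66.62 megareads of estimated counts. Setd2 was at 34.4 to 58.8 CPM (counts per megaread, TMM-scaled over all 18 libraries) in depleted myotubes, against 101 to 108 CPM in control myotubes, and at 34.4 to 45.0 CPM in depleted myoblasts, against 97.7 to 118 CPM in control myoblasts. The summed level of 10 myotube markers, all detected, was 25316 to 30297 CPM with siRNA 1, 26576 to 28779 CPM with siRNA 2 and 22359 to 26037 CPM with control siRNA in myotubes, against 172 to 432 CPM over all myoblast libraries, given by group further on. In its table the column of the third siRNA 2 myoblast library is named SETD3 where its label has SETD2, and the third myotube control has NT_2 in its name where the other controls have NT_1. Library names begin with C13 or D1 in myotubes and with C14 or D2 in myoblasts, in unequal numbers per group, and the labels do not explain these prefixes. The tables held no mitochondrially encoded gene, so the subunits made inside the mitochondrion were not analysed here. No label states whether the libraries are stranded, and overlapping genes on opposite strands may share reads.

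Of the 86 members, 80 were tested in the fit of all libraries and in myotubes. The tissue-restricted isoform genes Ndufa4l2, Cox4i2, Cox6b2 and Cox7b2 had at most 7 counts in any library, and Cox8c and a second gene named Atp5o, which overlaps the first, had 0 counts in all libraries. Cox6a2 and Cox8b passed the filter on low counts only through the myotubes, so 78 members were tested in myoblasts. Ndufa4l2, the paralogue of Ndufa4, summed to 16, 10 and 14 counts over the myotube libraries with siRNA 1, siRNA 2 and control siRNA, and to 16, 6 and 10 counts over the myoblast libraries in the same order.

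Atp5b, the catalytic beta subunit of ATP synthase, had the highest level per length of all members in every group. It stood at 2109 ± 76.2 TPM with siRNA 1, 2508 ± 92.8 TPM with siRNA 2 and 2079 ± 31.7 TPM with control siRNA in myotubes, and at 2081 ± 26.8 TPM, 2211 ± 15.5 TPM and 2283 ± 54.1 TPM with siRNA 1, siRNA 2 and control siRNA in myoblasts (SD, n = 3 each). TPM is a length-corrected share of a library, so levels of different genes can be set side by side on it. Ndufa4, named for complex I and now placed in complex IV, led the genes of the first complex with 561 TPM in control myotubes and 525 TPM in control myoblasts. Uqcrh, the hinge protein of complex III, led its complex with 644 TPM in control myotubes and 514 TPM in control myoblasts. In complex IV the leading gene was Cox6c in myotubes (795 TPM with control siRNA) and Cox4i1 in myoblasts (644 TPM with control siRNA). In complex II it was the flavoprotein Sdha in myotubes (207 TPM with control siRNA) and the membrane anchor Sdhd in myoblasts (193 TPM with control siRNA).

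Summed per complex, levels were higher in control myotubes than in control myoblasts by a factor that differed between complexes. Complex I summed to 7778 ± 97.5 TPM in control myotubes and 5802 ± 194 TPM in control myoblasts, a ratio of 1.34. Complex III summed to 2891 ± 60.9 TPM in control myotubes and 2152 ± 117 TPM in control myoblasts, also a ratio of 1.34. Complex IV summed to 5496 ± 109.8 TPM in control myotubes and 4368 ± 193 TPM in control myoblasts (SD, n = 3 each), a ratio of 1.26. The ratios of complexes II and V were lower, at 1.10 and 1.08. In all 5 complexes the 3 control myotube libraries lay above the 3 control myoblast libraries.

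Which single subunits changed as myoblasts became myotubes was tested in control cells. Cox6a2 and Cox8b, which passed the filter through the myotubes alone, are left out of these counts and described by their levels further on. Of the 78 members tested in both stages 59 rose and 5 fell (edgeR's quasi-likelihood test, Benjamini-Hochberg adjusted p under 0.05), against 39.4% of 16930 tested genes called higher and 38.1% called lower. Their median log2 fold change was 0.32, against 0.004 over all tested genes. In complex I 31 of 37 tested members rose and 2 fell, with a median of 0.52. In complex II 2 of 4 rose and 1 fell (median 0.17), and in complex III 7 of 8 rose (median 0.46) and Uqcrc1, a core protein, had a change of -0.06 ± 0.04 (adjusted p = 0.167). In complex IV 9 of 12 rose and 1 fell (median 0.285), and in complex V 10 of 17 rose and 1 fell (median 0.21). The genes without a call were Ndufa12, Ndufab1, Ndufb6, Ndufs6, Sdhb, Uqcrc1, Cox5a, Cox8a, Atp5a1, Atp5c1, Atp5f1, Atp5g1, Atp5g2 and Atp5g3. The alpha subunit gene Atp5a1 and all 3 genes of the c-ring are among them.

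The same comparison within Setd2-depleted cells called more members higher. With siRNA 1, 69 of 78 rose and 1 fell, with a median of 0.41, against 39.7% of all genes called higher and 38.8% called lower. With siRNA 2, 77 of 78 rose and none fell, with a median of 0.62, against 40.3% of all genes called higher and 37.8% called lower. Cox6a1, the ubiquitous form of subunit 6a, was the member that fell with siRNA 1 (-0.25 ± 0.04, adjusted p = 3.21e-06) and the 1 member not called with siRNA 2 (-0.06 ± 0.04, adjusted p = 0.135). The complex medians lay between 0.21 and 0.60 for siRNA 1 and between 0.51 and 0.72 for siRNA 2.

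**Figure D1:**
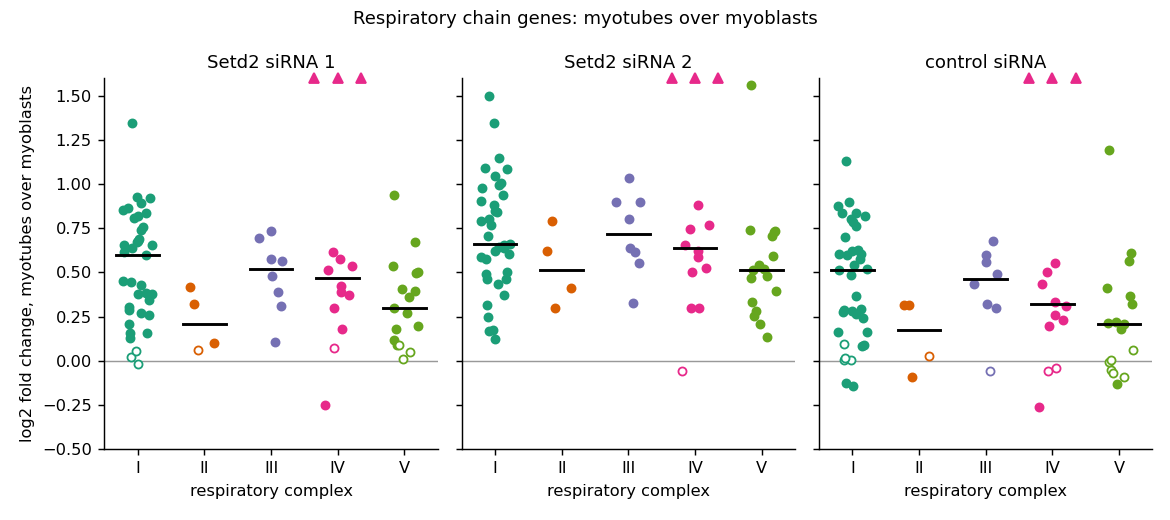
Log2 fold change of myotubes over myoblasts (vertical axis) for each tested member by complex, with Setd2 siRNA 1, Setd2 siRNA 2 and control siRNA; filled points passed adjusted p under 0.05, open points did not, bars are medians over all points of a complex, and triangles at the top mark Cox6a2, Cox8b and Cox7a1, which lie beyond the axis; Cox6a2 and Cox8b are shown as a description only. Complex medians in control cells lie between 0.17 and 0.52, and with siRNA 2 all members but Cox6a1 are filled and above 0.

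In complex I the largest rise was that of Ndufa13 (chr8:69894180-69902558), an accessory subunit of the membrane arm also known as GRIM-19. Its levels were 78.4, 78.5 and 76.1 CPM in control myotubes, against 37.5, 35.2 and 33.5 CPM in control myoblasts, with no overlap. Its log2 fold change was 1.13 ± 0.05 (SE; adjusted p = 1.10e-14). Ndufv3, an accessory subunit of the NADH-binding module, rose by 0.90 ± 0.06 (adjusted p = 1.36e-11) and Ndufa3, an accessory subunit, by 0.88 ± 0.07 (adjusted p = 5.83e-10). The 2 members that fell did so by little. Ndufc2 was at 34.3, 33.9 and 34.3 CPM in control myotubes, against 39.9, 37.0 and 36.2 CPM in control myoblasts (-0.14 ± 0.04, adjusted p = 0.00709), and Ndufa8 was at 50.0, 52.4 and 53.0 CPM in control myotubes, against 57.7, 55.6 and 56.7 CPM in control myoblasts (-0.13 ± 0.03, adjusted p = 0.00187). With siRNA 2 both of these accessory subunits were called higher in myotubes, at 0.12 ± 0.04 (adjusted p = 0.0152) and 0.17 ± 0.03 (adjusted p = 0.000135). Ndufa4 was at 132, 128 and 125 CPM with siRNA 1, 147, 153 and 149.5 CPM with siRNA 2 and 126, 126 and 124 CPM with control siRNA in myotubes, and at 116, 115 and 114 CPM, 120.4, 112 and 114 CPM and 123, 116 and 116 CPM with siRNA 1, siRNA 2 and control siRNA in myoblasts.

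The 4 genes of complex II went different ways in control cells. Sdha, the subunit that oxidises succinate, was at 261, 255 and 255 CPM in control myotubes, against 208, 207 and 204 CPM in control myoblasts, and rose by 0.32 ± 0.03 (adjusted p = 1.60e-09). The membrane anchor Sdhc was at 96.5, 88.6 and 94.8 CPM in control myotubes, against 79.2, 71.4 and 73.8 CPM in control myoblasts, and rose by 0.32 ± 0.05 (adjusted p = 2.57e-06). The other anchor, Sdhd, was at 113, 108 and 108 CPM in control myotubes, against 117, 117 and 116 CPM in control myoblasts, a fall with no overlap between the stages (-0.09 ± 0.03, adjusted p = 0.00935). Sdhb, the iron-sulphur subunit, was at 93.8, 90.7 and 95.4 CPM in control myotubes, against 93.2, 91.3 and 90.1 CPM in control myoblasts, with a change of 0.03 ± 0.04 (adjusted p = 0.50). With siRNA 2 all 4 were called higher in myotubes.

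In complex III the largest rise was that of Uqcrc2, a core protein on the matrix side, at 0.68 ± 0.04 (adjusted p = 2.65e-12). The small subunits Uqcr11 and Uqcrq followed with 0.60 ± 0.05 (adjusted p = 2.47e-10) and 0.56 ± 0.06 (adjusted p = 1.05e-07). In complex V the largest rise was that of Atp5s, the coupling factor B gene, with 4.66, 4.47 and 4.80 CPM in control myotubes, against 2.29, 2.07 and 1.71 CPM in control myoblasts (1.19 ± 0.12, adjusted p = 9.75e-09). Atp5mpl and Atp5k, which encode small proteins of the membrane part, rose by 0.61 ± 0.08 (adjusted p = 1.78e-06) and 0.57 ± 0.08 (adjusted p = 7.25e-06). Atp5b changed by -0.13 ± 0.03 (adjusted p = 0.000623), the 1 fall in complex V.

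The 3 genes Atp5g1, Atp5g2 and Atp5g3 encode the same mature c-subunit of the rotor ring. Atp5g1 was at 94.0, 86.4 and 87.4 CPM with siRNA 1, 114, 112 and 107 CPM with siRNA 2 and 79.9, 77.1 and 82.1 CPM with control siRNA in myotubes, and at 76.3, 76.7 and 83.8 CPM, 76.7, 79.8 and 77.3 CPM and 82.8, 78.3 and 77.0 CPM with siRNA 1, siRNA 2 and control siRNA in myoblasts. Atp5g2 was at 158, 155 and 148 CPM with siRNA 1, 157, 155 and 149.7 CPM with siRNA 2 and 140.1, 138 and 143 CPM with control siRNA in myotubes, and at 153, 146 and 146 CPM, 144, 138 and 139.5 CPM and 161, 147 and 141 CPM with siRNA 1, siRNA 2 and control siRNA in myoblasts. Atp5g3 was at 320.3, 301 and 311 CPM with siRNA 1, 379, 388 and 376 CPM with siRNA 2 and 289, 259.9 and 283 CPM with control siRNA in myotubes, and at 291, 282 and 305 CPM, 306, 318 and 314 CPM and 299, 291 and 283 CPM with siRNA 1, siRNA 2 and control siRNA in myoblasts. Between control stages their changes were 0.01 ± 0.04, -0.09 ± 0.04 and -0.07 ± 0.04 (adjusted p = 0.921, 0.0521 and 0.117). Per length, Atp5g1 made up 18.5%, 18.0% and 17.9% of the summed 3 genes with siRNA 1, 20.1%, 19.6% and 19.6% with siRNA 2 and 17.9%, 18.2% and 18.3% with control siRNA in myotubes, the siRNA 2 libraries lying above all others.

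The muscle isoforms of complex IV had the largest changes with differentiation of the whole chain. Cox6a2 (chr7:128205435-128206387), the heart and skeletal muscle form of subunit 6a, was at 36.4, 42.5 and 39.2 CPM in control myotubes, against 0.133, 0.110 and 0.0706 CPM in control myoblasts. Cox8b (chr7:140898945-140900446), the muscle form of subunit 8, was at 12.6, 11.0 and 12.2 CPM in control myotubes, against 0.0829, 0.0367 and 0 CPM in control myoblasts. Cox7a1 (chr7:30184144-30186078), the muscle form of subunit 7a, was at 3.77, 2.79 and 3.58 CPM in control myotubes, against 0.199, 0.128 and 0.230 CPM in control myoblasts. Myotube libraries lay far above myoblast libraries for all 3 genes. Cox7a1 rose by 4.15 ± 0.22 (adjusted p = 7.94e-13). Cox6a2 and Cox8b had 18 and 7 counts over the control myoblast libraries together, and since they entered the table only through the myotubes their difference between stages is a description, with no test.

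The ubiquitous partners of these isoforms remained the more abundant forms in myotubes. Per length, Cox6a2 made up 26.2%, 30.3% and 27.6% of Cox6a1 and Cox6a2 together in control myotubes, against 0.104%, 0.0933% and 0.0594% in control myoblasts. Cox8b made up 21.9%, 19.7% and 21.2% of Cox8a and Cox8b together in control myotubes, against 0.164%, 0.0821% and 0% in control myoblasts. Cox7a1 made up 12.3%, 9.31% and 11.8% of Cox7a1 and Cox7a2 together in control myotubes, against 0.788%, 0.553% and 1.03% in control myoblasts. The partner genes themselves moved far less than the muscle isoforms, though Cox6a1 had the largest fall of any member. Cox6a1 was at 80.4, 76.7 and 80.7 CPM in control myotubes, against 100.2, 92.4 and 93.0 CPM in control myoblasts (-0.26 ± 0.04, adjusted p = 1.93e-06). Cox8a was at 89.0, 88.5 and 89.6 CPM in control myotubes, against 99.6, 89.3 and 86.1 CPM in control myoblasts (-0.04 ± 0.05, adjusted p = 0.477). Cox7a2 was at 71.5, 71.8 and 70.3 CPM in control myotubes, against 66.9, 59.0 and 60.5 CPM in control myoblasts (0.20 ± 0.04, adjusted p = 0.000501).

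**Figure D2:**
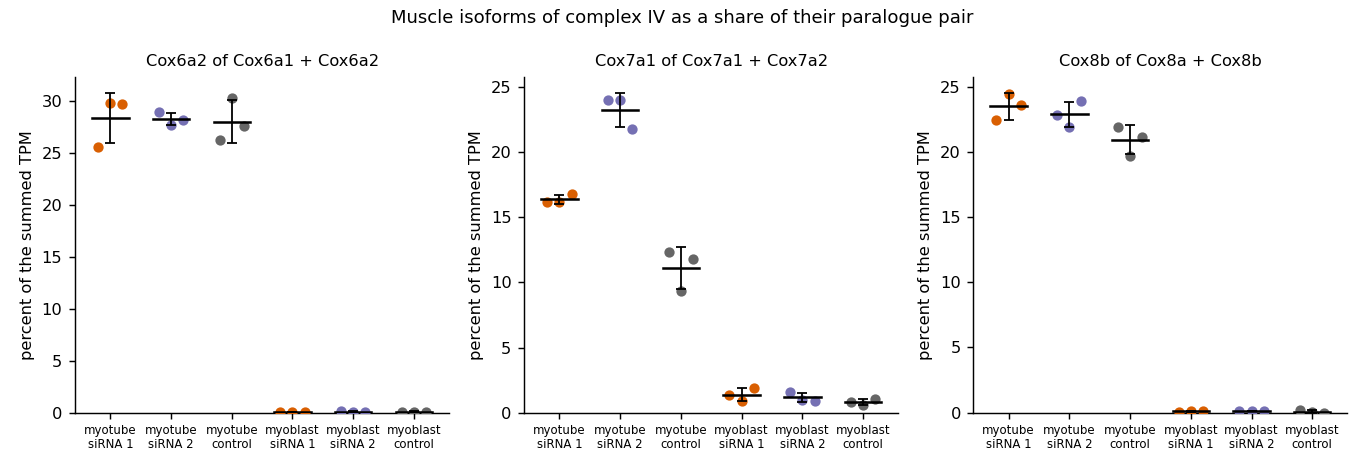
Share of the muscle isoform in the summed TPM of its paralogue pair (vertical axes, percent) by group, with 1 point per library and bars for mean and SD (n = 3). Cox7a1 makes up 16.2% to 16.8% with siRNA 1, 21.8% to 24.0% with siRNA 2 and 9.31% to 12.3% with control siRNA in myotubes, while the ranges of Cox6a2 overlap between the 3 myotube groups.

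The upstream sequences of these isoform genes are shown for the 5 with an entry in the RefSeq table, which leaves out Cox6a2. Each is the 250 bases before the RefSeq start on GRCm38.p6, read 5′ to 3′ on the gene's strand. Capitals mark E-boxes (CANNTG, the motif of myogenic helix-loop-helix factors) and, in Cox6a1, the NRF1 motif GCGCANGCG and the ETS motif CCGGAAG on either strand.
Cox7a1 (chr7:30183921-30184170, plus strand): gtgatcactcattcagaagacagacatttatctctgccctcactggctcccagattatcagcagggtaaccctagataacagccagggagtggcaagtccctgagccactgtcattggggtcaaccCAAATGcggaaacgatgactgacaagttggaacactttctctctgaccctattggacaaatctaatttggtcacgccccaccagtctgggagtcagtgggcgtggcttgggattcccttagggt
Cox8b (chr7:140900447-140900696, minus strand): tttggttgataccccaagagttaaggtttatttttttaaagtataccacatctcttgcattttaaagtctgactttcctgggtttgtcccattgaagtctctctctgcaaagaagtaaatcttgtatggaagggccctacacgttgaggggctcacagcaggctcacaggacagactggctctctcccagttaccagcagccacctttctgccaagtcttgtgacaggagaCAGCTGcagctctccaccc
Cox7a2 (chr9:79759854-79760103, minus strand): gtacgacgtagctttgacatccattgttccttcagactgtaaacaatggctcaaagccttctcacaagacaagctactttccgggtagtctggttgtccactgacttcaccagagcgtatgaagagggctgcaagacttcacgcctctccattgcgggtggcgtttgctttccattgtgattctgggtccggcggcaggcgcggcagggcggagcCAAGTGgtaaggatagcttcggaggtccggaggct
Cox8a (chr19:7217617-7217866, minus strand): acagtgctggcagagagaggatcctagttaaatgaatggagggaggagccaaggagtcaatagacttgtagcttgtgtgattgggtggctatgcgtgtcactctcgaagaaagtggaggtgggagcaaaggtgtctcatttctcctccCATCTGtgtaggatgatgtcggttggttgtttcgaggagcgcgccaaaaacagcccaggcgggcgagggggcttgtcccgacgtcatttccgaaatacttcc
Cox6a1 (chr5:115348959-115349208, minus strand): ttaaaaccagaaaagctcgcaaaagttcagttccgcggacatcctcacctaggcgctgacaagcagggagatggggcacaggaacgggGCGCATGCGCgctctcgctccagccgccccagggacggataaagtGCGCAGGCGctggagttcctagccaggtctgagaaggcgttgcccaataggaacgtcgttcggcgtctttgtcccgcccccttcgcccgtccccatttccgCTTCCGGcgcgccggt
In these windows Cox7a1, Cox8b, Cox7a2 and Cox8a each hold 1 E-box and no match to the NRF1, ETS, ERR (AAGGTCA) or MEF2 motif. Cox6a1 holds no E-box, and its first capital run is made of overlapping NRF1 matches on both strands. Over the 69 members with an entry, 63.8% held an E-box, against 69.3% of 27025 genes. The NRF1 motif was in 20.3% of the members, against 5.9% of genes, and the ETS motif was in 17.4% of the members, against 7.8% of genes. The ERR motif was in 7.2% of the members, against 4.7% of genes, and the MEF2 motif was in 0 members, against 3.4% of genes. NRF1 matches were in 6 of 33 complex I genes, 2 of 3 in complex II, 0 of 5 in complex III, 1 of 13 in complex IV and 5 of 15 in complex V. Matches are letters in a fixed window and do not show binding.

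The other paralogues of complex IV moved by less than the muscle isoforms. Cox4i1, the ubiquitous form of subunit 4, was at 245, 244 and 236 CPM with siRNA 1, 279.7, 276 and 268 CPM with siRNA 2 and 229, 227 and 226 CPM with control siRNA in myotubes, and at 186, 187 and 188 CPM, 196, 188 and 188 CPM and 199.7, 192 and 190.0 CPM with siRNA 1, siRNA 2 and control siRNA in myoblasts. It rose by 0.23 ± 0.03 (adjusted p = 1.01e-06) between control stages. Cox6b1, the ubiquitous form of subunit 6b, was at 126, 127 and 119 CPM with siRNA 1, 143, 142 and 143 CPM with siRNA 2 and 117, 118 and 117 CPM with control siRNA in myotubes, and at 81.1, 82.2 and 79.5 CPM, 88.6, 80.8 and 85.5 CPM and 85.9, 81.3 and 80.4 CPM with siRNA 1, siRNA 2 and control siRNA in myoblasts. It rose by 0.50 ± 0.04 (adjusted p = 1.30e-10). Cox7b, a small subunit, was at 119, 119 and 111 CPM with siRNA 1, 125, 129 and 127 CPM with siRNA 2 and 114, 118 and 118 CPM with control siRNA in myotubes, and at 83.0, 79.6 and 70.9 CPM, 77.2, 64.5 and 65.3 CPM and 85.3, 74.9 and 77.9 CPM with siRNA 1, siRNA 2 and control siRNA in myoblasts. It rose by 0.55 ± 0.07 (adjusted p = 3.79e-07). Cox4i2, Cox6b2 and Cox7b2, the second genes of these sets, stayed at 7 counts or fewer summed over the 3 libraries of every group.

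Transcript estimates showed an exchange of splice forms in Atp5c1, which encodes the gamma subunit, the rotating shaft of ATP synthase. Of 330 transcripts of members with a gene mean of at least 20 TPM, 6 transcripts of 3 genes (Atp5c1, Atp5j and Ndufa7) differed by over 10 points in their share of the gene between control stages, and they are described because of that size. Transcript Atp5c1-201 joins exon 8 to the last exon, and Atp5c1-203 has a 37-base exon between them (exon 9, chr2:10056770-10056806, minus strand), which holds 4 coding bases in GENCODE M21. Skipping of this exon in heart and skeletal muscle is known in mammals. The 30 bases across the end of exon 8 show where the forms part, with capitals for the bases after exon 8.
Atp5c1-201: tggggctgctgctctGTAAAGAAGAAGAAT
Atp5c1-203: tggggctgctgctctGGATTAATGAAAATC
The lower-case bases are chr2:10058996-10059010, and the capitals are chr2:10056147-10056161 in Atp5c1-201 and chr2:10056792-10056806 in Atp5c1-203. The skipped form Atp5c1-201 made up 83.8%, 80.6% and 83.7% of Atp5c1 TPM in control myotubes, against 40.0%, 38.3% and 37.2% in control myoblasts. Depleted myotubes had 86.0%, 84.6% and 84.9% with siRNA 1 and 83.8%, 85.0% and 86.4% with siRNA 2. Depleted myoblasts had 40.6%, 42.4% and 38.5% with siRNA 1 and 45.6%, 44.9% and 43.6% with siRNA 2, and the siRNA 2 libraries lay above all control myoblasts. All 9 myotube libraries lay far above all 9 myoblast libraries. The gene total changed by -0.06 ± 0.03 between control stages (adjusted p = 0.125).

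Ndufa7, an accessory subunit of complex I, had a transcript annotated for nonsense-mediated decay (Ndufa7-202) at 4.66%, 4.22% and 5.54% of its TPM in control myotubes, against 17.0%, 16.5% and 11.5% in control myoblasts. Its coding transcript Ndufa7-201 was at 93.0%, 93.3% and 92.2% in control myotubes, against 78.8%, 79.0% and 84.2% in control myoblasts. Atp5j-208, a retained-intron transcript of the ATP synthase gene Atp5j, was at 38.4%, 38.1% and 32.9% in control myotubes, against 21.3%, 23.6% and 19.9% in control myoblasts. The control stages did not overlap in these shares, but the transcripts were chosen by that difference. With siRNA 2 the stages overlapped in Atp5j-208, at 29.6% to 36.1% in myotubes and 19.0% to 30.6% in myoblasts. The authors' quantifier estimated the shares from reads shared between overlapping transcripts.

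**Figure D3:**
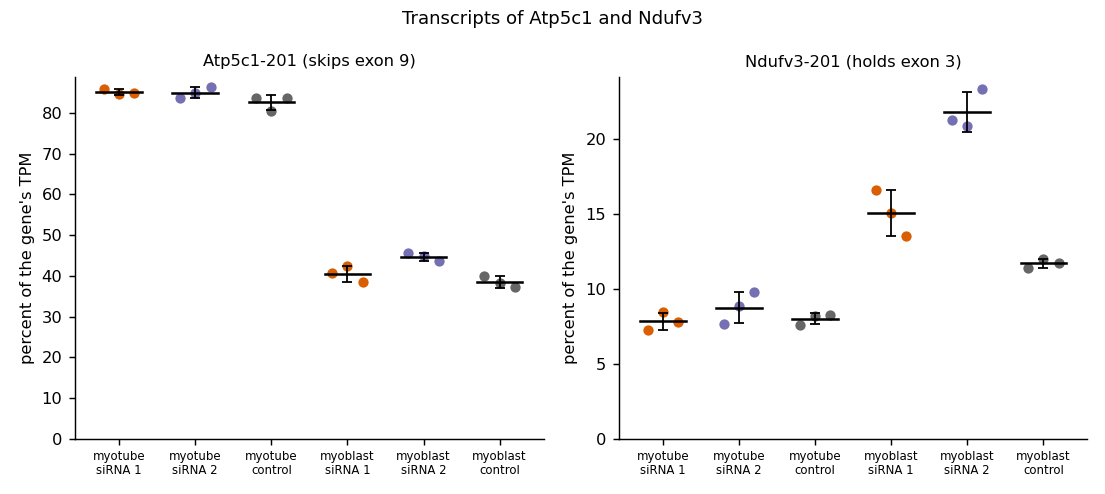
Share of Atp5c1-201 in the TPM of Atp5c1 and of Ndufv3-201 in the TPM of Ndufv3 (vertical axes, percent) by group, with 1 point per library and bars for mean and SD (n = 3). Atp5c1-201 lies at 80.6% to 86.4% in the 9 myotube libraries and at 37.2% to 45.6% in the 9 myoblast libraries, and Ndufv3-201 is highest in siRNA 2 myoblasts.

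Setd2 depletion in myotubes moved much of the chain upward by small amounts. With siRNA 1, 35 of 80 members rose and none fell, against 11.0% of 16067 tested genes called higher and 9.57% called lower. No member had a negative change even at an unadjusted p under 0.05. DESeq2 called 39 rises and 0 falls, against 11.3% and 9.09% of genes. With siRNA 2, 65 rose and 1 fell, against 15.8% of genes called higher and 16.4% called lower. In 34 members a rise was called with each siRNA, against 7.16% of all genes, and in 0 a fall, against 6.28% of all genes. The members' median log2 fold changes were 0.11 with siRNA 1 and 0.27 with siRNA 2, against -0.001 and -0.010 over all tested genes. All 3 siRNA 1 libraries lay above all 3 control libraries in 54 of 80 members, against 18.4% of genes, and the siRNA 2 libraries did so in 72, against 21.6% of genes. Both siRNAs are set against the same control libraries, so their values are not independent.

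Within prefix C13 (1 library per siRNA and 2 controls) the members' median log2 difference from control was 0.13 with siRNA 1 and 0.27 with siRNA 2, and 76 and 75 of 80 members were higher. Within prefix D1 (2 libraries per siRNA and 1 control) the medians were 0.11 and 0.27, with 75 members higher for each. The medians over all genes lay between -0.015 and -0.008, and 47.2% to 48.0% of all genes were higher. With limma on log2(TPM + 1) 12 members rose and 1 fell with siRNA 1, against 4.90% and 11.1% of all genes, and 55 rose and 4 fell with siRNA 2, against 7.94% and 23.6%. With each siRNA 12 rose and 1 fell by limma, against 2.77% and 8.10% of genes, and the medians over all genes on that scale were -0.046 with siRNA 1 and -0.075 with siRNA 2. Without the second control library, the only one of prefix D1, 16 members rose with siRNA 1 (against 7.21% of genes) and 16 with each siRNA (against 4.46%), and without the third control, named NT_2, 26 rose with each (against 4.79%). The summed level of 6 myoblast markers in myotubes was 759 to 817 CPM with siRNA 1, 710 to 760 CPM with siRNA 2 and 836 to 858 CPM with control siRNA. The myotube marker sums given above exceeded all controls with siRNA 2 and overlapped them with siRNA 1. Of those 10 markers 3 rose and 1 fell with siRNA 1, against 11.0% and 9.57% of genes. With siRNA 2, 5 rose and 1 fell, against 15.8% and 16.4%. Myh4 had means of 268 CPM with siRNA 1 and 263 CPM with siRNA 2, against 526 CPM in control myotubes. Ribosomal RNA-like sequence, the counts of 2 annotated genes that match ribosomal RNA, took 1.5% to 2.88% of counts with siRNA 1 and 2.26% to 2.99% with siRNA 2, against 1.27% to 2.3% in control myotubes. The part of these levels in the result was not tested, and in bulk RNA fewer cells of a type and less RNA per cell cannot be told apart.

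**Figure D4:**
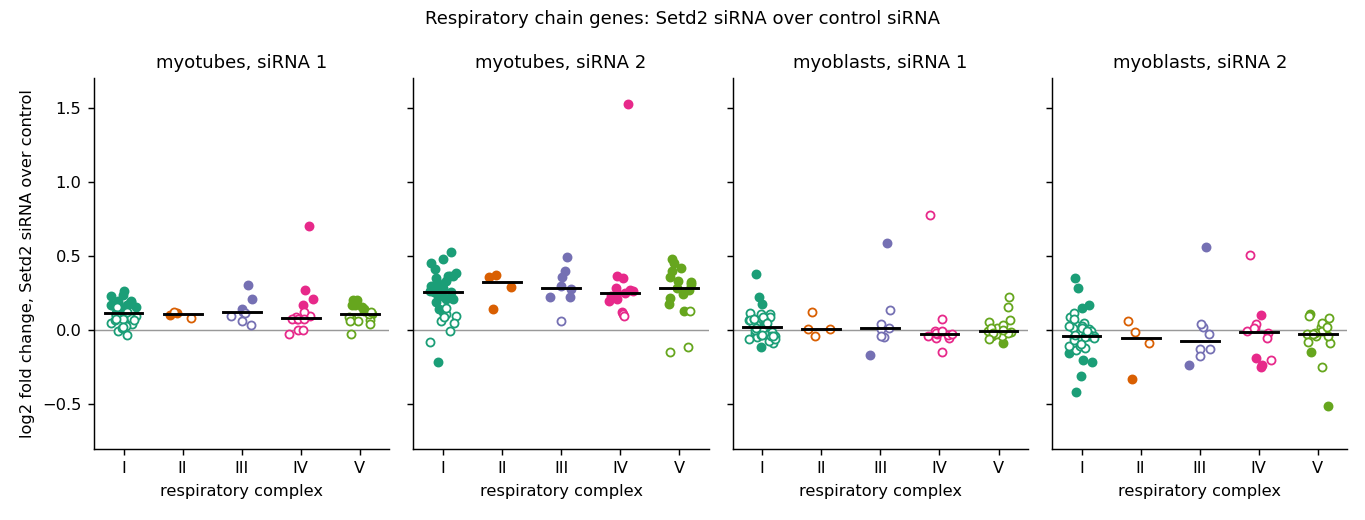
Log2 fold change of Setd2 siRNA over control siRNA (vertical axis) for each tested member by complex, in myotubes and in myoblasts, each with siRNA 1 and siRNA 2; filled points passed adjusted p under 0.05, open points did not, and bars are medians. In myotubes complex medians are 0.08 to 0.12 for siRNA 1 and 0.25 to 0.32 for siRNA 2, and in myoblasts they lie between -0.07 and 0.02.

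All 5 complexes held members called higher in myotubes with each siRNA. With siRNA 2, 28 of 37 tested complex I members rose (median 0.26), 4 of 4 in complex II (0.32), 7 of 8 in complex III (0.29), 12 of 14 in complex IV (0.25) and 14 of 17 in complex V (0.28). With siRNA 1 the counts were 17, 2, 4, 4 and 8, with medians of 0.12, 0.11, 0.12, 0.08 and 0.11. Summed over all members, the level was 26921 to 28128 TPM with siRNA 1 and 29367 to 30648 TPM with siRNA 2, against 25789 to 26757 TPM in control myotubes, with no overlap of either siRNA with control. By complex, the siRNA 1 sums overlapped the controls in complexes II and IV. They were 741 to 808 TPM in complex II, against 714 to 769 TPM in control myotubes. In complex IV they were 5499.5 to 5699 TPM, against 5380 to 5598 TPM. Of the 80 members, 70 had their highest mean CPM of the 6 groups in siRNA 2 myotubes, 7 in siRNA 1 myotubes, 2 in control myotubes (Atp5s and Ndufa7) and 1 in control myoblasts (Cox6a1). Members called with neither siRNA included Ndufa1, Ndufa3, Ndufab1, Uqcrq, Cox7c, Cox8a, Atp5k, Atp5mpl and Atp5s.

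Cox7a1 had the largest response of the members. Its levels were 5.55, 5.47 and 5.32 CPM with siRNA 1 and 10.2, 10.1 and 8.69 CPM with siRNA 2, against 3.77, 2.79 and 3.58 CPM in control myotubes, and the 3 groups did not overlap. It rose by 0.70 ± 0.12 (adjusted p = 0.00132) with siRNA 1 and 1.52 ± 0.11 (adjusted p = 2.49e-06) with siRNA 2. Its share of the 7a pair was 16.2%, 16.2% and 16.8% with siRNA 1 and 24.0%, 24.0% and 21.8% with siRNA 2, above the control myotube shares given earlier. Cox8b was at 14.2, 15.0 and 13.8 CPM with siRNA 1 and 14.5, 13.5 and 14.6 CPM with siRNA 2, against 12.6, 11.0 and 12.2 CPM in control myotubes. It rose by 0.27 ± 0.07 (adjusted p = 0.0151) and 0.25 ± 0.07 (adjusted p = 0.0143). Cox6a2 was at 34.7, 42.9 and 40.5 CPM with siRNA 1 and 47.6, 45.1 and 44.5 CPM with siRNA 2, against 36.4, 42.5 and 39.2 CPM in control myotubes. The siRNA 1 libraries overlapped the controls (0.00 ± 0.07, adjusted p = 0.988), and the change with siRNA 2 of 0.21 ± 0.07 (adjusted p = 0.0431) missed the threshold in 8 of 16 alternatives.

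In complex I the accessory subunit Ndufb10 (chr17:24722060-24724478) was at 75.8, 72.6 and 72.4 CPM with siRNA 1 and 90.7, 85.1 and 81.1 CPM with siRNA 2, against 63.1, 60.5 and 60.5 CPM in control myotubes, with no overlap. It rose by 0.27 ± 0.05 (adjusted p = 0.00184) and 0.48 ± 0.05 (adjusted p = 1.71e-05). Ndufa6, an accessory subunit of the LYR family, was at 79.8, 78.9 and 77.7 CPM with siRNA 1 and 82.7, 78.1 and 76.0 CPM with siRNA 2, against 68.7, 64.6 and 68.2 CPM in control myotubes. It rose by 0.24 ± 0.04 (adjusted p = 0.00243) and 0.23 ± 0.04 (adjusted p = 0.00150). The 1 member that fell was Ndufa7 (chr17:33824572-33838317), at 49.5, 47.7 and 47.6 CPM with siRNA 2, against 56.6, 54.3 and 57.0 CPM in control myotubes (-0.22 ± 0.04, adjusted p = 0.00128). With siRNA 1 it was at 56.6, 56.1 and 54.3 CPM, within the control range (adjusted p = 0.960).

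In complexes II and III the rises called with each siRNA included both a catalytic and a core gene. Sdha was at 276, 271 and 279.9 CPM with siRNA 1 and 332, 330.3 and 327 CPM with siRNA 2, against 261, 255 and 255 CPM in control myotubes (0.11 ± 0.03, adjusted p = 0.0389, and 0.36 ± 0.03, adjusted p = 1.25e-05). Sdhd was at 120.0, 118 and 117 CPM with siRNA 1 and 139, 145 and 142 CPM with siRNA 2, against 113, 108 and 108 CPM in control myotubes (0.12 ± 0.03, adjusted p = 0.0314, and 0.37 ± 0.03, adjusted p = 1.18e-05). The siRNA 1 calls of Sdha and Sdhd were each lost in 7 of 16 alternatives. Sdhb and Sdhc were called with siRNA 2, at 0.29 ± 0.04 (adjusted p = 7.90e-05) and 0.14 ± 0.05 (adjusted p = 0.0482), and had p above the threshold with siRNA 1, at 0.08 ± 0.04 (adjusted p = 0.118) and 0.12 ± 0.05 (adjusted p = 0.108). Uqcrc2 was at 138, 139 and 140.3 CPM with siRNA 1 and 157, 163 and 159 CPM with siRNA 2, against 113, 110.0 and 116 CPM in control myotubes (0.30 ± 0.03, adjusted p = 0.000105, and 0.50 ± 0.03, adjusted p = 1.48e-06). Uqcr10, a small subunit, rose by 0.21 ± 0.05 (adjusted p = 0.00717) and 0.28 ± 0.05 (adjusted p = 0.000764).

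In complex V the genes ranked first by the smaller of their 2 siRNA changes were Atp5c1 and Atp5d. With siRNA 2 alone Atp5g1 (0.48 ± 0.05) and Atp5g3 (0.46 ± 0.05) had larger changes than both. Atp5c1 (chr2:10056016-10080510) was at 229, 229 and 230.0 CPM with siRNA 1 and 259.5, 264 and 267 CPM with siRNA 2, against 200.4, 201 and 199 CPM in control myotubes, and rose by 0.20 ± 0.03 (adjusted p = 0.000741) and 0.40 ± 0.03 (adjusted p = 3.44e-06). Atp5d, the delta subunit of the central stalk, was at 263, 263 and 257 CPM with siRNA 1 and 288, 274 and 267 CPM with siRNA 2, against 228, 224 and 229 CPM in control myotubes, and rose by 0.21 ± 0.04 (adjusted p = 0.00275) and 0.28 ± 0.04 (adjusted p = 0.000183). Neither gene's depleted libraries overlapped the controls. Atp5b was called with siRNA 2, at 0.33 ± 0.04 (adjusted p = 8.66e-05), and not with siRNA 1, at 0.06 ± 0.04 (adjusted p = 0.335).

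Set against each other in myotubes, siRNA 2 gave higher levels than siRNA 1 in 48 of 80 members and lower levels in 2, against 7.77% and 9.37% of all genes, with a median difference of 0.16. The largest difference was that of Cox7a1 at 0.82 ± 0.11 (adjusted p = 0.000334). Ndufa5, an accessory subunit, followed with 41.1, 42.3 and 42.7 CPM with siRNA 2, against 34.8, 31.6 and 33.4 CPM with siRNA 1 (0.33 ± 0.05, adjusted p = 0.000542). Atp5g1 differed by 0.31 ± 0.05 (adjusted p = 0.000678) and Ndufs8, a core iron-sulphur subunit, by 0.31 ± 0.04 (adjusted p = 0.000147). The 2 lower members were Atp5k at -0.22 ± 0.04 (adjusted p = 0.00390) and Ndufa7 at -0.21 ± 0.04 (adjusted p = 0.00295). Setd2 itself was at 34.4 to 38.9 CPM with siRNA 2 and 38.9 to 58.8 CPM with siRNA 1.

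In myoblasts the shares of members called by edgeR were below those of all genes, except for the falls with siRNA 2. Summed levels were lower with siRNA 1 on the TPM scale only. With siRNA 1, 4 of 78 members rose and 3 fell, against 11.6% of 15586 tested genes called higher and 8.44% called lower. With siRNA 2, 7 rose and 13 fell, against 17.1% and 16.5% of genes. The members' medians were 0.001 and -0.029, against 0.005 and 0.000 over all genes. With limma on log2(TPM + 1) 2 rose and 13 fell with siRNA 1, against 4.68% and 12.3% of all genes, and 3 rose and 17 fell with siRNA 2, against 10.4% and 17.8%. The medians over all genes on that scale were -0.049 with siRNA 1 and -0.030 with siRNA 2. Summed over all members, the level was 20060 to 20933 TPM with siRNA 1 and 20079 to 21590 TPM with siRNA 2, against 21250 to 22591 TPM in control myoblasts. The siRNA 1 sums in TPM lay below all controls, also in complexes II, IV and V, and the siRNA 2 sums overlapped the controls except in complex II. As TMM-scaled CPM per kilobase the siRNA 1 sums over all members were 11563 to 11948, overlapping the 11482 to 12395 of control myoblasts. Called with each siRNA were 4 rises, against 7.69% of genes, and 2 falls, against 4.25% of genes. Without the third siRNA 2 library, whose column is named SETD3, these were 4 rises and 1 fall. Without the second control or the second siRNA 1 library they were 2 rises and 0 falls, without the third control 2 rises and 1 fall, and without the first control or the third siRNA 1 library 0 falls; over all genes the share of falls with each siRNA was 2.40% to 4.89% when any 1 library was left out. Within prefix C14 the members' median differences were -0.06 with siRNA 1 and -0.03 with siRNA 2, and 22 and 28 of 78 members were higher, against 49.4% and 49.1% of all genes. Within D2 the medians were 0.005 and -0.04, and 41 and 32 members were higher, against 51.6% and 49.8% of genes. Ribosomal RNA-like sequence took 3.56% to 3.91% of counts with siRNA 1 and 1.46% to 4.1% with siRNA 2, against 1.2% to 1.36% in control myoblasts. Marker sums moved too: the 10 myotube markers summed to 200 to 271 CPM with siRNA 1 and 350 to 432 CPM with siRNA 2, against 172 to 210 CPM in control myoblasts. The 6 myoblast markers summed to 1677 to 1742 CPM with siRNA 1 and 1831 to 1981 CPM with siRNA 2, against 1497 to 1564 CPM in control myoblasts. The part of these levels in the result was not tested.

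The 4 rises were in Uqcrc2, Ndufa9, Ndufv3 and Ndufb10. Uqcrc2 (chr7:120635176-120659524) was at 107, 108 and 104 CPM with siRNA 1 and 109.9, 99.1 and 104 CPM with siRNA 2, against 73.3, 71.7 and 67.3 CPM in control myoblasts. It rose by 0.59 ± 0.04 (adjusted p = 2.51e-06) and 0.56 ± 0.04 (adjusted p = 1.18e-06), the largest called changes of any member in myoblasts. Ndufa9 (chr6:126821721-126849136), an accessory subunit of the matrix arm, was at 63.3, 62.6 and 63.0 CPM with siRNA 1 and 61.8, 62.7 and 60.1 CPM with siRNA 2, against 49.0, 48.8 and 47.5 CPM in control myoblasts. It rose by 0.38 ± 0.03 (adjusted p = 4.69e-06) and 0.35 ± 0.03 (adjusted p = 3.88e-06). Every depleted library lay above every control library for both genes, and both calls held in all 16 alternatives with each siRNA. Ndufb10 rose by 0.17 ± 0.04 (adjusted p = 0.0148) and 0.15 ± 0.04 (adjusted p = 0.0214).

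The genes called lower with each siRNA in myoblasts were Uqcrfs1 and Ndufs1, 2 of 78 members. Uqcrfs1 (chr13:30540308-30545362), the Rieske protein of complex III, was at 83.0, 83.3 and 79.9 CPM with siRNA 1 and 80.8, 78.6 and 75.3 CPM with siRNA 2, against 98.6, 91.8 and 86.4 CPM in control myoblasts, with no overlap. It changed by -0.17 ± 0.05 (adjusted p = 0.0270) and -0.23 ± 0.05 (adjusted p = 0.00211). Ndufs1, the largest core subunit of complex I, was at 127, 118 and 119.5 CPM with siRNA 1 and 126, 123 and 120.4 CPM with siRNA 2, against 133, 130.1 and 133 CPM in control myoblasts, also with no overlap. It changed by -0.12 ± 0.03 (adjusted p = 0.0318) and -0.10 ± 0.03 (adjusted p = 0.0430). The siRNA 1 call of Uqcrfs1 was lost in 5 of 16 alternatives, and those of Ndufs1 in 4 with siRNA 1 and 7 with siRNA 2.

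Between the siRNAs in myoblasts, 10 of 78 members were lower with siRNA 2 than with siRNA 1 and 2 were higher, against 14.3% and 12.1% of all genes, so neither share exceeded that of all genes. Sdhc was at 60.4, 60.5 and 57.6 CPM with siRNA 2, against 82.2, 79.4 and 81.8 CPM with siRNA 1 (-0.45 ± 0.04, adjusted p = 7.19e-06), and control myoblasts had 79.2, 71.4 and 73.8 CPM. Atp5s was at 1.37, 1.30 and 1.57 CPM with siRNA 2, against 2.34, 2.29 and 2.46 CPM with siRNA 1 (-0.74 ± 0.14, adjusted p = 0.00217). Ndufa6 differed by -0.42 ± 0.06 (adjusted p = 0.000242) and Ndufa7 by -0.37 ± 0.05 (adjusted p = 0.000266). The 2 higher members were Atp5g3 at 0.10 ± 0.03 (adjusted p = 0.0447) and Atp5b at 0.08 ± 0.03 (adjusted p = 0.0397), and 0 were called higher without the filter on low counts.

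Ndufv3 (chr17:31520115-31531331) rose in myoblasts in gene counts, at 0.22 ± 0.07 (adjusted p = 0.0428) and 0.29 ± 0.07 (adjusted p = 0.00727), while its transcripts moved apart. The siRNA 1 call was lost in 7 of 16 alternatives. Ndufv3-201 includes a 1092-base coding exon (exon 3, chr17:31527310-31528401) that the shorter form Ndufv3-202 lacks. Its share of Ndufv3 TPM was 16.6%, 15.1% and 13.5% with siRNA 1 and 21.3%, 20.9% and 23.3% with siRNA 2, against 11.4%, 12.0% and 11.7% in control myoblasts, with no overlap. Mean levels of Ndufv3-201 were 14.4 TPM with siRNA 1 and 19.3 TPM with siRNA 2, against 10.9 TPM in control myoblasts. Mean levels of Ndufv3-202 were 80.2 TPM with siRNA 1 and 67.4 TPM with siRNA 2, against 80.6 TPM in control myoblasts. On log2(TPM + 1) with limma the gene's changes were 0.04 with siRNA 1 and -0.07 with siRNA 2, so the sign with siRNA 2 turned. A longer transcript yields more reads per molecule, so counts weigh the long form more than TPM does. In myotubes the share of the long form was 7.28%, 8.43% and 7.79% with siRNA 1 and 7.66%, 8.86% and 9.76% with siRNA 2, against 7.61%, 8.16% and 8.27% in control myotubes, with overlapping ranges.

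Whether depletion acted differently in the stages was tested directly, as the mean effect of both siRNAs in myotubes minus that in myoblasts. Cox6a2 and Cox8b, not tested in myoblasts, are left out of these counts. Of the 78 members tested in both stages the difference was positive and called in 54, against 10.6% of all genes. It was negative and called in 2, against 12.8% of all genes. The median difference was 0.22, against -0.004 over all genes, and 75 members lay above 0. By complex, 23 of 37 members were called higher in complex I, 4 of 4 in complex II and 5 of 8 in complex III. In complexes IV and V they were 9 of 12 and 13 of 17. The 2 negative members were Uqcrc2 at -0.17 ± 0.05 (adjusted p = 0.0118) and Ndufa9 at -0.12 ± 0.04 (adjusted p = 0.0258), which rose in both stages but more in myoblasts.

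The largest called positive difference was that of Uqcrfs1 at 0.36 ± 0.05 (adjusted p = 2.83e-05). In myotubes it was at 138, 129 and 132 CPM with siRNA 1 and 146, 147 and 144 CPM with siRNA 2, against 126, 123 and 125 CPM with control siRNA, all above the controls, whereas its depleted myoblasts lay below theirs. Ndufs7, a core iron-sulphur subunit of complex I, followed at 0.36 ± 0.05 (adjusted p = 1.55e-05). It was at 56.0, 57.9 and 56.0 CPM with siRNA 1 and 59.2, 59.1 and 56.6 CPM with siRNA 2, against 48.8, 46.8 and 49.6 CPM in control myotubes. In myoblasts it was at 41.1, 41.4 and 41.7 CPM with siRNA 1 and 39.7, 37.9 and 38.6 CPM with siRNA 2, against 45.3, 43.2 and 41.1 CPM with control siRNA. Cox7a2l, which helps to join complexes III and IV into supercomplexes, differed by 0.34 ± 0.05 (adjusted p = 1.57e-05), Atp5g1 by 0.34 ± 0.05 (adjusted p = 0.000112) and Ndufa6 by 0.33 ± 0.06 (adjusted p = 0.000512). Cox7a2l was at 105, 109 and 109 CPM with siRNA 1, 114, 115 and 108 CPM with siRNA 2 and 94.4, 92.0 and 94.1 CPM with control siRNA in myotubes, and at 74.8, 74.4 and 73.6 CPM, 66.7, 65.7 and 65.4 CPM and 79.8, 73.4 and 72.7 CPM with siRNA 1, siRNA 2 and control siRNA in myoblasts. Depleted myotubes lay above their controls for these 3 genes.

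**Figure D5:**
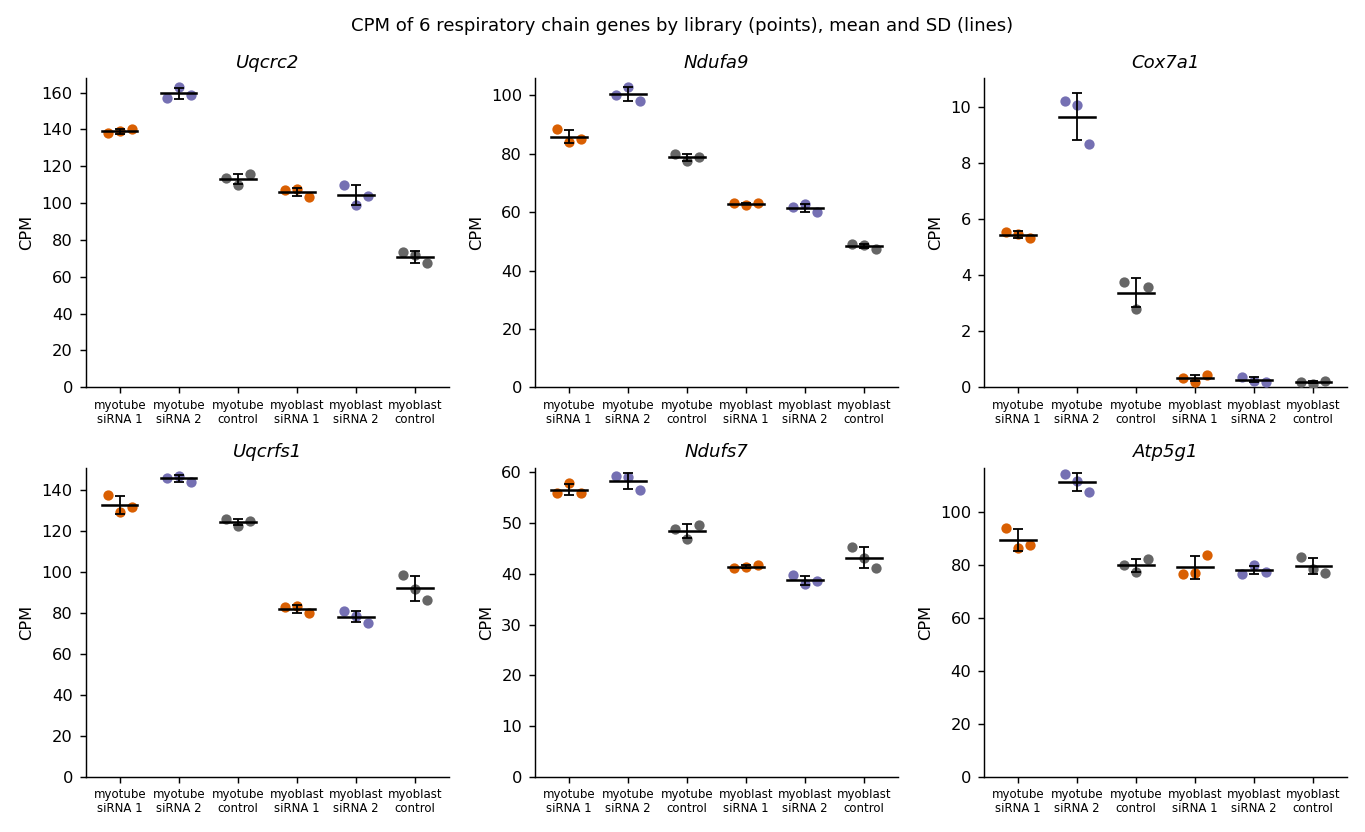
CPM (vertical axes, TMM-scaled over all libraries) of Uqcrc2, Ndufa9, Cox7a1, Uqcrfs1, Ndufs7 and Atp5g1 by group, with 1 point per library and bars for mean and SD (n = 3). Depleted libraries of Uqcrc2 and Ndufa9 lie above their controls in both stages, and those of Uqcrfs1 lie above the controls in myotubes and below them in myoblasts.

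Genes that work with the chain were followed through lists outside the rule. Of all genes tested in myotubes, 7.16% were called higher and 6.28% lower with each siRNA. Of 17 citrate cycle genes tested in myotubes, 8 rose with each siRNA and none fell. They included Idh3a, a catalytic subunit of NAD-dependent isocitrate dehydrogenase (0.25 ± 0.04, adjusted p = 0.00198, and 0.63 ± 0.04, adjusted p = 1.57e-06), and the succinyl-CoA ligase subunits Suclg2 (0.21 and 0.23) and Sucla2 (0.20 and 0.33). Of 18 complex I assembly factors 5 rose with each siRNA and none fell, led by Ndufaf3 (0.35 ± 0.07, adjusted p = 0.00399, and 0.56 ± 0.07, adjusted p = 9.34e-05). Of 36 assembly factors of the other complexes 5 rose and none fell, among them the copper chaperone Sco1 (0.34 and 0.34) and the complex III factor Uqcc3 (0.46 and 0.35). Of 6 tested subunits that the symbol rule left out, Cyc1, the cytochrome c1 of complex III, rose (0.19 ± 0.05, adjusted p = 0.0152, and 0.57 ± 0.05, adjusted p = 6.31e-06), and Atpif1, the inhibitor of ATP synthase, fell (-0.18 ± 0.04, adjusted p = 0.00424, and -0.26 ± 0.04, adjusted p = 0.000224). Of 12 energy transfer and carrier genes 6 rose with each siRNA and 1 fell. Slc25a4, the muscle ADP/ATP carrier, changed by 0.20 and 0.40, the porin Vdac2 by 0.27 and 0.35, and Ckb, the brain-type creatine kinase, by -0.38 and -0.39.

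Against 7.16% and 6.28% of all genes, 1 of 19 regulators of mitochondrial biogenesis rose with each siRNA in myotubes and none fell. It was Esrrg, a nuclear receptor of the estrogen-related type, at 1.49 ± 0.20 (adjusted p = 0.000402) and 0.94 ± 0.21 (adjusted p = 0.00460). Ppargc1a, the coactivator PGC-1 alpha, changed by 0.55 ± 0.18 (adjusted p = 0.0650) with siRNA 1 and 1.46 ± 0.17 (adjusted p = 0.000531) with siRNA 2. Of 17 citrate cycle genes in myoblasts 1 rose and 3 fell with siRNA 2, against 17.1% and 16.5% of all genes. With siRNA 1 edgeR called none, against 11.6% and 8.44% of all genes, with a median of 0.027. The genes named next were called with each siRNA, as were 7.69% (higher) and 4.25% (lower) of all genes in myoblasts. Of 18 complex I assembly factors Ndufaf3 rose (0.46 and 0.63), and Ndufaf4 (-0.25 and -0.46) and Tmem186 (-0.20 and -0.23) fell. Of 36 other assembly factors Atpaf1 rose (0.39 and 0.47), and Uqcc1 (-0.21 and -0.50) and Lrpprc (-0.16 and -0.39) fell. Of 17 tested regulators Gabpb1 rose (0.25 and 0.22), and Esrra (-0.28 and -0.60), Gabpb2 (-0.25 and -0.17) and Pprc1 (-0.15 and -0.19) fell. Of 11 carriers Vdac2 rose (0.55 and 0.53), as did Vdac1 (0.11 and 0.22). With differentiation in control cells, 9 citrate cycle genes rose and 8 fell, 8 and 6 of the complex I assembly factors, 21 and 9 of the others, and 6 and 10 of the regulators, against 39.4% and 38.1% of all genes. In each pair of values the first is the log2 fold change with siRNA 1 and the second that with siRNA 2, and each called gene passed edgeR's adjusted p under 0.05 with both.

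Markers of other cells that a muscle culture could hold or resemble were summed in the same way. The summed level of 5 brown adipocyte markers in myotubes was 137 to 167 CPM with siRNA 1, 169 to 206 CPM with siRNA 2 and 128 to 146 CPM with control siRNA, with the defining genes Ucp1 and Prdm16 at 0 counts in all 3 groups. All siRNA 2 sums lay above all control sums, and Dio2, a deiodinase, made up nearly all of them, at a mean of 148 CPM with siRNA 1, 182 CPM with siRNA 2 and 137 CPM with control siRNA. Dio2 was the 1 gene of this list tested in myotubes and was called higher with siRNA 2. The sum of 5 cardiac markers was 82.7 to 87.0 CPM with siRNA 1, 73.9 to 86.3 CPM with siRNA 2 and 74.3 to 90.0 CPM with control siRNA in myotubes. The sum of 6 fibroblast markers was 1077 to 1399 CPM with siRNA 1, 951 to 1391 CPM with siRNA 2 and 1154 to 1498 CPM with control siRNA in myotubes, and 1195 to 1442 CPM, 1484 to 1796 CPM and 1031 to 1290 CPM with siRNA 1, siRNA 2 and control siRNA in myoblasts. The sum of 5 white adipocyte markers, mostly Cd36, was 50.8 to 53.3 CPM, 32.5 to 34.4 CPM and 54.4 to 62.7 CPM with siRNA 1, siRNA 2 and control siRNA in myotubes, and 4 macrophage markers summed to at most 2.19 CPM in any library. The part of these genes in the subunit levels was not tested.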

How the data were processed

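Each stage has 1 deposited table, with an estimated count and a TPM value per library for 115088 Ensembl transcripts. Per the file headers the estimated counts are unscaled and have the layout that salmon writes, and the TPM values deposited by the authors are length-corrected shares of each library. No source used here names the quantifier or its annotation, and the submitters' processing notes name mm10 and DESeq2. Transcripts were matched to GENCODE M21 (114200 matched, and the 888 others held 0.16% to 0.24% of counts), and the counts of a gene's transcripts were added up and rounded.

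Tests used edgeR 4.0.16 in R 4.3.3 (filterByExpr with a minimum count of 10, TMM, glmQLFit and glmQLFTest with robust estimates, Benjamini-Hochberg adjustment over all tested genes, calls at 0.05, two-sided). Depletion was fitted on the 9 libraries of a stage (6 residual degrees of freedom), and differentiation and the difference between stages on all 18 libraries (12 residual degrees of freedom). The fits were tested on simulated data. Printed CPM values are TMM-scaled over all libraries. Alternatives were RLE scaling, DESeq2 1.42.0, no filter on low counts, limma 3.58.1 on log2(TPM + 1), protein-coding transcripts only, a term for the name prefix, the replicate number as a block, and each library left out.

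Named were the paralogue sets, up to 3 called members per direction and complex with differentiation, up to 2 per direction and complex called with each siRNA, up to 5 per direction for the difference between stages, and up to 3 per direction from each pathway list. Uqcrc1, Ndufa7, Atp5b, Ppargc1a, the genes named in the comparisons between siRNAs, the most abundant members and the transcripts were added after their values were seen. The members, lists and tests were chosen with earlier results of these data known. Promoter sequences are from RefSeq (GRCm38.p6), and members without an entry are named only.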

Additional observations from a re-analysis of the deposited data

Results flagged for a closer look

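The test of the difference between stages called the depletion effect higher in myotubes than in myoblasts in 54 of 78 members and lower in 2. Over all genes 10.6% were called higher and 12.8% lower. The members named from it were Uqcrfs1 with a log2 difference of 0.36, Ndufs7 with 0.36, Cox7a2l with 0.34, Atp5g1 with 0.34, Ndufa6 with 0.33, Uqcrc2 with -0.17 and Ndufa9 with -0.12. Each is the mean effect of both siRNAs in myotubes minus that in myoblasts, from 1 fit of all 18 libraries with edgeR. The 5 positive calls held in all 25 alternatives. The call of Uqcrc2 was lost in 1 of 25 alternatives and that of Ndufa9 in 6.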

How the results depend on the processing

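Of 1151 checks on 58 named results, 1090 kept their direction and call, 60 lost the call and 1 reversed: Ndufv3 in myoblasts with siRNA 2 came to -0.074 with limma on log2(TPM + 1). With that test 12 members rose and 1 fell in myotubes with siRNA 1 (4.90% and 11.1% of genes), and 4 fell with siRNA 2 (23.6% of genes). With each siRNA 12 members rose and 1 fell by that test (2.77% and 8.10% of genes). In myoblasts it gave 2 rises and 13 falls with siRNA 1 (4.68% and 12.3% of genes) and 3 rises with siRNA 2 (10.4% of genes). It gave 2 rises and 4 falls with each siRNA (3.39% and 6.22% of genes). It called 4 members higher with siRNA 2 than with siRNA 1 (10.6% of genes), and 1 lower with differentiation under siRNA 2 (38.4% of genes). Without the filter on low counts 2 members fell with differentiation under siRNA 1 (23.2% of genes). In that setting 0 were higher with siRNA 2 than with siRNA 1 in myoblasts (6.30% of genes). A negative difference between stages was called there in 1 member (6.64% of genes). With protein-coding transcripts 1 member was higher with siRNA 2 than with siRNA 1 in myoblasts (14.1% of genes). A prefix term gave 51 rises with siRNA 1, 72 with siRNA 2 and 51 with each in myotubes, and 69 positive differences between stages. Over all genes it called 18.3% higher with siRNA 2, 9.39% higher with each, and 14.3% with a positive difference between stages. In myoblasts it gave 9 falls with siRNA 1, 13 rises and 25 falls with siRNA 2, and 5 falls with each (8.03% of genes). It called 11 members higher and 16 lower with siRNA 2 than with siRNA 1, against 19.7% and 20.5% of genes. For differentiation stage and prefix cannot be separated, so no prefix term was run. With the replicate block, myotubes gave 39 rises with siRNA 1, 2 falls with siRNA 2 (17.8% of genes) and 38 rises with each (8.10% of genes). The numbers were not taken to pair the samples, since correlations of same-numbered deviations ran from -0.151 to 0.303 in myoblasts (6 of 9 over 0.1, those of numbers 1 and 3) and from -0.103 to 0.143 in myotubes (2 of 9 over 0.1), and a library correlated best with its own number in 10 of 18 checks in myoblasts and 7 of 18 in myotubes. In myoblasts the replicate block gave 8 rises and 5 falls with siRNA 1, and 11 rises and 22 falls with siRNA 2. It called 17 members lower with siRNA 2 than with siRNA 1, against 17.8% of genes. Calls over all genes rose as well: in myoblasts with siRNA 2 the prefix term called 23.7% higher and 22.6% lower, and the block 20.3% and 19.6%; with siRNA 1 these were 18.0% and 14.3%, and 15.5% and 12.3%; in myotubes with siRNA 1 they were 14.6% and 12.8%, and 12.5% and 10.8%.

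Leaving out each library in turn gave 16 to 41 rises with siRNA 1 and 16 to 37 with each siRNA in myotubes. Over all genes 7.21% to 13.2% rose with siRNA 1 and 4.46% to 7.99% with each. In myoblasts it gave 2 to 7 rises and 0 to 4 falls with siRNA 1, and 3 to 9 rises with siRNA 2. Over all genes 7.16% to 11.6% rose and at least 4.71% fell with siRNA 1, and 13.3% to 17.7% rose with siRNA 2. With each siRNA there were 2 to 5 rises and 0 to 2 falls, against 5.31% to 7.51% and 2.40% to 4.89% of genes. Members higher with siRNA 2 than with siRNA 1 numbered 0 to 3, against at least 8.46% of genes. Those lower with siRNA 2 numbered 7 to 16, against 10.8% to 14.2% of genes. The negative differences between stages numbered 0 to 3, against 10.6% to 13.5% of all genes. The log2 ratios of summed levels depended on the scale, and the TPM value is given in brackets after that in CPM per kilobase. For siRNA 2 over control myotubes they were 0.24 (0.155) in complex I, 0.30 (0.212) in complex II and 0.28 (0.198) in complex III. In complex IV they were 0.23 (0.145), in complex V 0.31 (0.224) and over all members 0.27 (0.184). For siRNA 1 over control myotubes they were 0.066 (0.025) in complex IV. In myoblasts the siRNA 1 ratios were 0.017 (-0.053) in complex I and 0.017 (-0.051) in complex II. They were -0.016 (-0.085) in complex V and -0.006 (-0.076) over all members. The causes were not tested.

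The changes with depletion in myotubes are mostly under 0.5 log2 units and rest on 3 control libraries, so counts of calls with siRNA 1 depend on which library is left out. The myoblast calls, also from 3 control libraries, vary with the library left out as given above.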
